A study of Mus musculus with 4 samples.

Results

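The comparison described here is the difference between 2 responses to the same cytokine treatment: how far each transcript moved in virtual memory CD8 T cells when mice were given IL-15C, minus how far it moved in naive CD8 T cells of the same design. Its members are the genes with 20 or more reads over the 4 libraries, 14728 of the 15466 genes in the table, and all 4 libraries enter it. IL-15C is interleukin 15 in complex with its receptor subunit IL-15Ra, which presents the cytokine to T cells. The libraries came from sorted spleen cells of C57BL/6 mice: IL-15C virtual memory, control virtual memory, IL-15C naive and control naive cells, with 1 library each. IL-15C mice received the complex 4 times a week and control mice, titled wild type, received PBS on the same schedule. All 4 groups were enriched with anti-CD8 beads and sorted after treatment on surface CD44 and CD49d, naive cells lacking both and virtual memory cells carrying high CD44 without CD49d. A cell was therefore assigned by the CD44 it carried at the end, not by what it was before treatment. The titles give 3 mice per group and do not say whether they were pooled. No age is given here.

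The virtual memory subset arises in mice that have met no foreign antigen, carries a memory phenotype, and needs IL-15 for its upkeep. IL-15 binds the beta and common gamma chains of the IL-2 receptor, activates the kinases JAK1 and JAK3 and the transcription factor STAT5, and drives survival, division and cytotoxic readiness. Type I and type II interferons act through other receptors, and switch on genes whose promoters carry an interferon-stimulated response element. Subsets can differ under such a treatment in how far a transcript moves, in where it started, or in both, so differences are given with both responses or with the starting gap, the log2 ratio of virtual memory to naive cells in control mice.

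The promoters of 4 members that stand for both directions of the difference are shown first, from RefSeq on GRCm38.p6, 250 bases before to 50 after the annotated start, written on the strand of the gene. For 3 interferon-induced genes whose response was larger in naive cells, the capitals mark letters that match GAAANNGAA or its reverse complement, the core of the interferon-stimulated response element. For Cish, a feedback inhibitor of STAT5 signalling whose response was larger in virtual memory cells, they mark TTCNNNGAA, the palindrome that STAT proteins bind. The windows are chr3:151749861-151750160 on the minus strand (Ifi44), chr19:34640639-34640938 on the plus strand (Ifit1), chr12:26456403-26456702 on the minus strand (Rsad2) and chr9:107296409-107296708 on the plus strand (Cish).
Ifi44: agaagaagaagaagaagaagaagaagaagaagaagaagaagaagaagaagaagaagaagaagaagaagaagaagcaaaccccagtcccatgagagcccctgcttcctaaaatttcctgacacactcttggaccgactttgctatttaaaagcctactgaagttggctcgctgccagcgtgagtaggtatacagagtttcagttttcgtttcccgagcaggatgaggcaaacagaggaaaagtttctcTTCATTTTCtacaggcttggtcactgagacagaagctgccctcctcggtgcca
Ifit1: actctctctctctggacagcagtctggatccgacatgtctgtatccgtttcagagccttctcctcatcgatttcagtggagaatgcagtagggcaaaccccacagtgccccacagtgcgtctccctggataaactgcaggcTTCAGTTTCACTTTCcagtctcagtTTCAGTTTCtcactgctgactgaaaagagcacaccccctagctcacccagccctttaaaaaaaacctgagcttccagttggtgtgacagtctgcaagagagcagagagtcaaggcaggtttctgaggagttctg
Rsad2: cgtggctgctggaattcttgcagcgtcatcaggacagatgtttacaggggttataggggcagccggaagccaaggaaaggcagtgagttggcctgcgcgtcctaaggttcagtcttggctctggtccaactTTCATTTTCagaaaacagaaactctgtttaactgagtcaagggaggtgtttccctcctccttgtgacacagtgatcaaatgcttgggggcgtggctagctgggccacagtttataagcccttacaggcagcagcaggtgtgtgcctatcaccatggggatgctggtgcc
Cish: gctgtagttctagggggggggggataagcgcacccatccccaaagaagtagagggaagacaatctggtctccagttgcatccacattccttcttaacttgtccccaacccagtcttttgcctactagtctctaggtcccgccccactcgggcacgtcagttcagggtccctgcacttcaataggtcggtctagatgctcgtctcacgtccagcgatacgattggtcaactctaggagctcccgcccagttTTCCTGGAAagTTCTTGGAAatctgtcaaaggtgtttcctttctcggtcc
Ifit1 holds 3 matches, the first pair of which overlap, while Ifi44 and Rsad2 hold 1 each and Cish holds 2 palindromes close together just after its annotated start. Of 10291 compared genes with a window in the table used, 8.54% held GAAANNGAA on either strand and 8.38% held TTCNNNGAA. Of 35 interferon-induced list members with a window, 23 held GAAANNGAA (65.7%): 10 of the 12 counted ones (83.3%) and 13 of the 23 others (56.5%). Of 19 STAT5-related members 5 held TTCNNNGAA (26.3%), beside 8 of 35 interferon-induced genes (22.9%). The same letters were held by 3 of 21 DNA replication genes (14.3%) and 0 of 17 mitosis genes. TTTNGCGC, the letters bound by E2F factors of the cell cycle, were held by 7 of 21 DNA replication genes (33.3%) and 2 of 17 mitosis genes (11.8%), against 2.91% of all compared. A match is a description of letters, not of binding.

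The libraries held 45289920 reads in IL-15C virtual memory, 43862816 in control virtual memory, 45649628 in IL-15C naive and 48950547 in control naive cells. Levels are CPM, reads scaled to a common library size, after TMM scaling, where 1 read was worth 0.0197 to 0.0233 CPM. Responses are log2 ratios of IL-15C over control, and the difference is the response of virtual memory cells minus that of naive cells, so a negative value is a lower response in virtual memory cells. With 1 library per group there was no test and no replicate check. Intervals, given in brackets, are 95% counting intervals: they cover the sampling of reads and nothing else. A gene was counted when its difference was at least 2-fold and the whole interval lay beyond 2-fold, and the same limit decides below whether a gene rose or fell within a subset. The table holds genes with at least 1 read in each library, so transcripts without a read in some group were not analysed here. The median width of the interval was 0.42 log2 units over all members, but 6.38 for the 80 genes with 20 or 21 reads, of which 0 were counted, and 7.12 for the 75 genes just outside the limit with 18 or 19 reads. The sorted marker Cd44 was at 243 CPM in IL-15C and 232 CPM in control virtual memory cells, and at 17.2 CPM in IL-15C and 8.65 CPM in control naive cells, and Cd8a at 1049.9 and 1168 CPM in IL-15C and control virtual memory cells, and at 1603 and 1396 CPM in IL-15C and control naive cells.

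The responses of the subsets differed mostly in one direction. Of the 14728 members, 554 (3.76%) had the lower response in virtual memory cells and 126 (0.856%) the higher one. Each list count below is to be read beside these shares. At a 4-fold limit 83 members (0.564%) were counted, 74 (0.502%) lower and 9 (0.0611%) higher. Within virtual memory cells 1099 members (7.46%) rose and 1182 (8.03%) fell, and within naive cells 924 (6.27%) changed, 652 (4.43%) up and 272 (1.85%) down. Virtual memory cells stood higher than naive cells for 827 members (5.62%) and lower for 786 (5.34%) with IL-15C, and higher for 648 (4.4%) and lower for 140 (0.951%) in control mice. The median difference over all members was −0.07, the median response −0.07 in virtual memory cells and 0.01 in naive cells, and the median starting gap 0.01. Of the 680 counted genes 456 (67.1%) were less than 2-fold apart in control mice, a smaller share than the 13271 of all 14728 members (90.1%), and 427 of these were at least 2-fold apart with IL-15C. At the 4-fold limit 29 of the 83 genes were less than 2-fold apart in control mice. Among the 680, a further 98 genes started apart and stood closer with IL-15C, 55 started apart and stood further apart, and 71 stood in the opposite order. Taking the 2-fold limit on the values alone, 367 of the 680 genes (54%) were down in virtual memory cells only and 67 up in virtual memory cells only. Another 53 were up and 22 down in naive cells only, 89 were past 2-fold the same way in both subsets, 26 in opposite ways, and 56 in neither. The most frequent combination was a similar start followed by a decrease in virtual memory cells only, with the subsets at least 2-fold apart with IL-15C (275 genes). These are bulk libraries, in which fewer cells of a type and less RNA per cell cannot be told apart. Genes with the higher response in virtual memory cells had a median transcript length of 3754 bases and a median GC content of 52.1%, those with the lower response 3249 bases and 46.7%, and the others 2949 bases and 49.7%. With the trend along length and GC removed, 109 genes had the higher response in virtual memory cells and 486 the lower one.

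**Figure D1:**
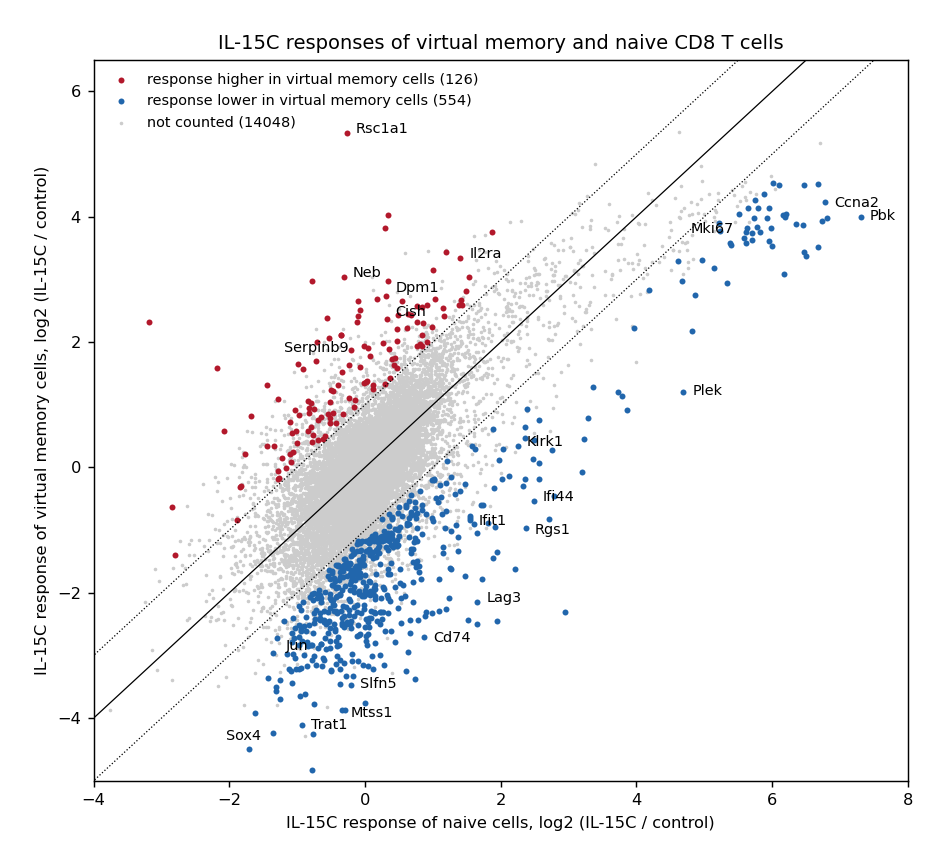
Each point is 1 of the 14728 genes, with the log2 IL-15C response of naive cells on the x axis and that of virtual memory cells on the y axis. The solid line marks equal responses and the dotted lines a 2-fold difference. The 554 genes with the lower response in virtual memory cells lie below the lines, in a cloud with negative responses of virtual memory cells at the left and a second group at the right with high responses in both subsets, and the 126 with the higher response lie above.

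**Figure D2:**
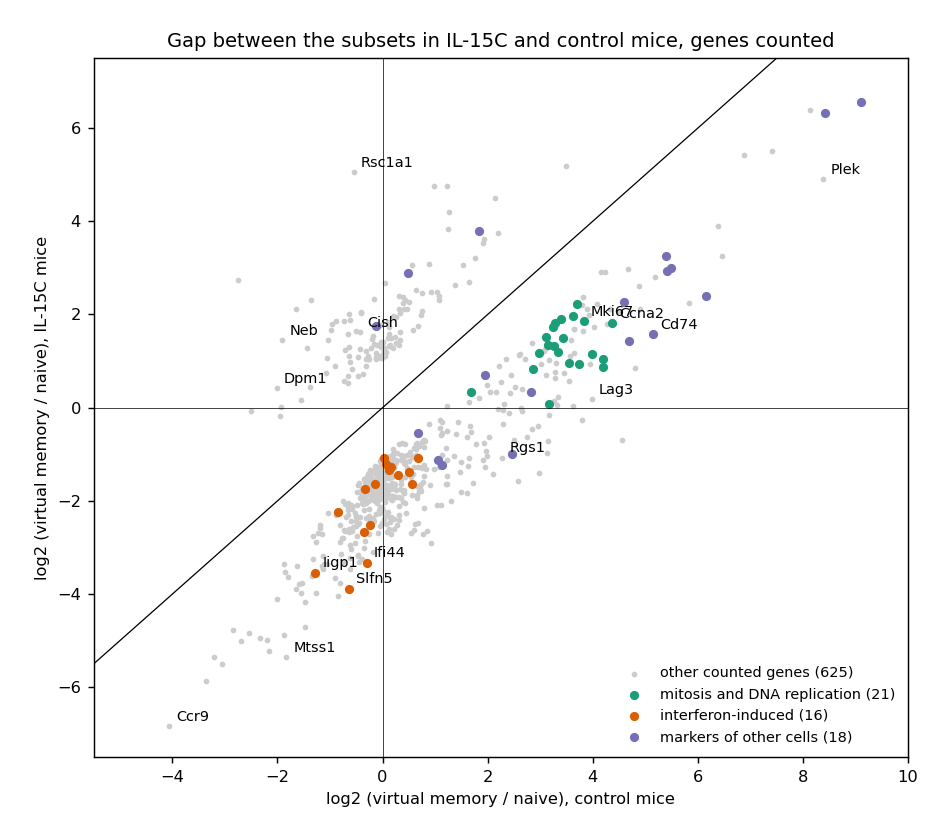
For the 680 genes counted, the log2 ratio of virtual memory to naive cells in control mice is on the x axis and that in IL-15C mice on the y axis, with equal gaps on the line. Counted interferon-induced genes have starting gaps between −1.28 and 0.68 and gaps with IL-15C below 0, while counted mitosis and DNA replication genes start further apart and stay above 0 on both axes.

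Interferon-induced genes, the antiviral programme switched on by type I interferon, had the larger response in naive cells from nearly the same starting level. Of 46 list members 16 had the lower response in virtual memory cells and 0 the higher one, and the difference was below 0 for 44 of them. Their median response was 0.09 in virtual memory cells and 0.97 in naive cells, with a median starting gap of −0.06 and a median difference of −0.70, against −0.07 over all members. Within naive cells 20 of the 46 rose past the 2-fold limit, and within virtual memory cells Ifi27l2a alone rose, and Samd9l and Slfn5 fell.

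Ifi44, an interferon-induced cytoplasmic protein (Entrez 99899, chromosome 3, 151730922 to 151749910 in RefSeq on GRCm38.p6, as for the genes below), was at 0.817 CPM in IL-15C and 1.21 CPM in control virtual memory cells, and at 8.58 CPM in IL-15C and 1.49 CPM in control naive cells. Only the IL-15C naive library stood high, and the log2 difference was −3.03 (−3.84 to −2.33). Ifit1, which binds viral RNA lacking the host cap methylation, was at 11.8 and 20.2 CPM in IL-15C and control virtual memory cells, and at 74.9 and 25.7 CPM in IL-15C and control naive cells, a difference of −2.31 (−2.50 to −2.13) made of −0.77 in virtual memory and 1.54 in naive cells. Rsad2, which encodes the antiviral enzyme viperin, was at 7.65 CPM in IL-15C and 8.66 CPM in control virtual memory cells, and at 23.8 CPM in IL-15C and 5.86 CPM in control naive cells, and its difference was −2.19 (−2.48 to −1.92). In each of these the control libraries stood within 2-fold of each other.

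Iigp1, an interferon-inducible GTPase that attacks the vacuoles of intracellular parasites, was the 1 counted member of the list that already started apart, at 5.55 and 10.6 CPM in IL-15C and control virtual memory cells, and at 65.1 and 25.7 CPM in IL-15C and control naive cells. Its starting gap was −1.28 and its gap with IL-15C −3.54. The other members counted as naive rises from a similar start were Ifit3, Ifit3b, Isg15, Isg20, Oasl2, Oas2, Mx1 and Bst2. Ifit3 and Ifit3b are near-identical copies between which reads may have been divided. Oasl2 moved by 0.93 in virtual memory and 2.39 in naive cells. Mx2, annotated as a transcribed pseudogene, was at 1.56 CPM in IL-15C and 3.19 CPM in control virtual memory cells, and at 9.17 CPM in IL-15C and 3.77 CPM in control naive cells. Ifih1, the viral RNA sensor MDA5, passed 2-fold in neither subset, with responses of −0.76 and 0.67.

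Slfn5 and Samd9l were counted through the virtual memory side instead. Slfn5, a Schlafen family gene of T cell quiescence (Entrez 327978, chromosome 11, 82951349 to 82964850), was at 6.51 and 72.3 CPM in IL-15C and control virtual memory cells, and at 97.0 and 112 CPM in IL-15C and control naive cells, so that virtual memory cells fell by 3.46 on the log2 scale and naive cells moved by −0.21. Samd9l, an antiviral and growth-restraining gene, had responses of −1.70 in virtual memory and −0.20 in naive cells. The signalling genes of the pathway included Stat2 and Irf7, which were not counted: Stat2 had responses of −0.23 in virtual memory and 0.17 in naive cells, and Irf7 −0.02 and 0.96. The members whose difference lay above 0 were Gbp7 and Lgals3bp. Of 7 genes of the interferon receptors and their kinases, 1 was lower (14.3%, against 3.76% of all members) and 0 higher. This was Ifngr2, which encodes one subunit of the receptor for interferon gamma and was at 0.98 CPM in IL-15C and 5.62 CPM in control virtual memory cells, and at 27.7 CPM in IL-15C and 40.6 CPM in control naive cells. Its log2 gap between virtual memory and naive cells was −2.84 in control and −4.76 in IL-15C mice. Ifngr1, the other chain, and the kinase Jak1 had differences of −0.13 and 0.38.

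**Figure D3:**
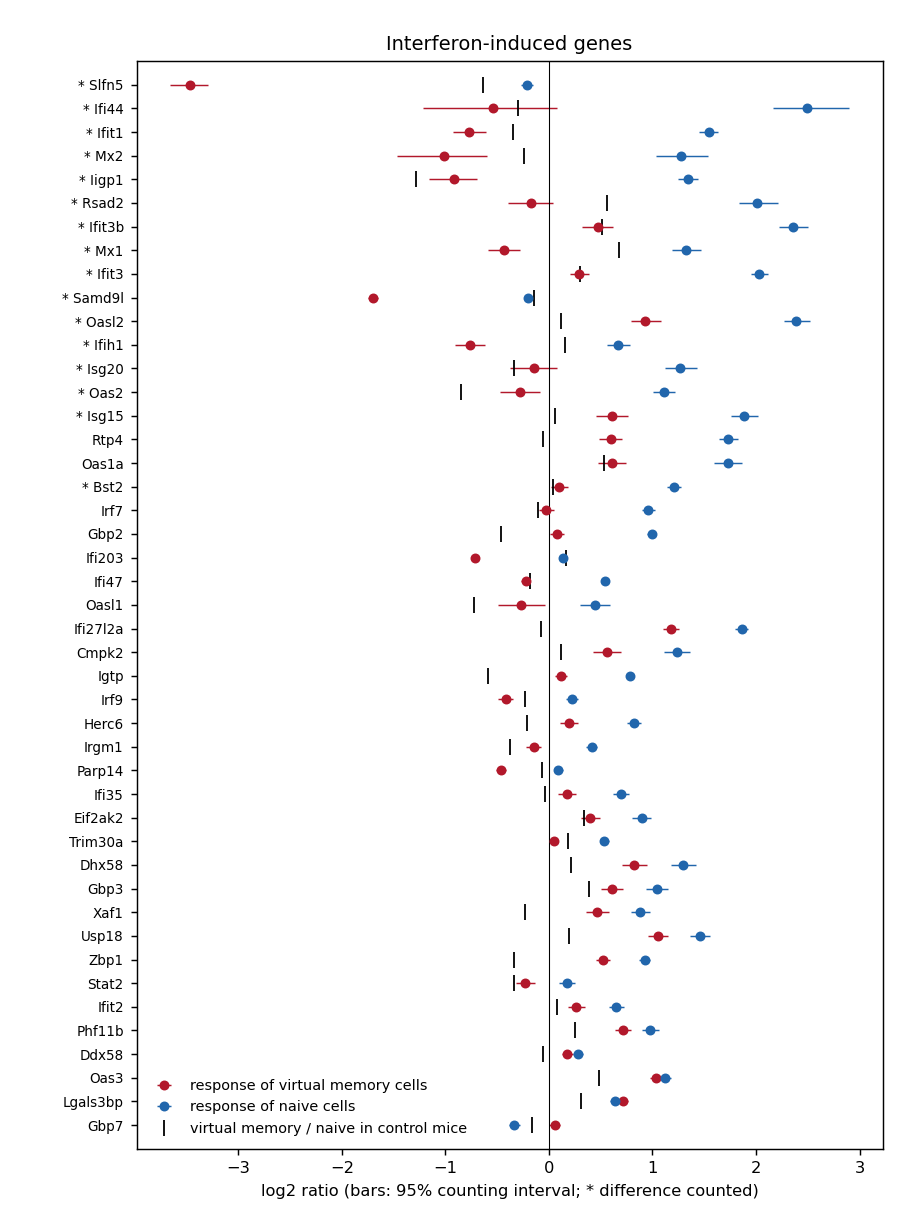
For genes of the interferon-induced list, the log2 response of virtual memory cells and that of naive cells are plotted with 95% counting intervals, and a tick gives the log2 ratio of virtual memory to naive cells in control mice. Naive responses lie to the right of virtual memory responses except in Gbp7 and Lgals3bp, and the 16 counted genes carry an asterisk. Slfn5 and Samd9l differ by a fall in virtual memory cells.

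Rgs1, which ends G protein signals from chemokine receptors and helps to hold lymphocytes in tissue (Entrez 50778, chromosome 1, 144244669 to 144249104), was at 10.4 and 20.4 CPM in IL-15C and control virtual memory cells, and at 21.9 and 4.19 CPM in IL-15C and control naive cells. The gene rose by 2.37 in naive cells and moved by −0.97 in virtual memory cells, a difference of −3.35 (−3.63 to −3.09). The subsets changed places, with a gap of −1.07 in IL-15C and 2.27 in control mice. Of 18 genes of the list of RGS proteins and G protein-coupled receptors 6 had the lower response in virtual memory cells and 0 the higher one. Among these, Rgs16, Rgs2, Gprc5b and Gpr34 fell in virtual memory cells, with responses of −2.61, −1.75, −3.17 and −2.97 there and of −0.44, −0.32, 0.05 and −0.19 in naive cells.

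Mtss1, which links the cell membrane to actin (Entrez 211401, chromosome 15, 58941234 to 59083956), was at 0.817 CPM in IL-15C and 12.5 CPM in control virtual memory cells, and at 35.1 CPM in IL-15C and 44.7 CPM in control naive cells. It was lower in virtual memory cells in IL-15C (−5.35) and in control mice (−1.83), with responses of −3.87 in virtual memory and −0.35 in naive cells and a difference of −3.52 (−4.13 to −3.08). Cnn3, an actin-binding calponin, was at 0.864 and 7.70 CPM in IL-15C and control virtual memory cells, and at 26.6 and 28.5 CPM in IL-15C and control naive cells. Trat1, which stabilises T cell receptor complexes at the surface, was at 1.004 CPM in IL-15C and 18.1 CPM in control virtual memory cells, and at 17.1 CPM in IL-15C and 32.5 CPM in control naive cells. Its control libraries lay within 2-fold of each other and the IL-15C virtual memory library far below them. Tnfrsf25, the death receptor DR3, had responses of −3.45 and −0.37 in virtual memory and naive cells from a starting gap of −0.28. Xkrx, an XK-related membrane protein, had a difference of −3.05.

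Among 20 naive-state genes 5 had the lower response in virtual memory cells and 0 the higher one, with a median difference of −0.54 and responses of −0.66 in virtual memory and −0.24 in naive cells. Il7r, the IL-7 receptor chain that sustains resting T cells, was at 211 and 645 CPM in IL-15C and control virtual memory cells, and at 428 and 508 CPM in IL-15C and control naive cells. Only the IL-15C virtual memory library stood low. Sox4, a transcription factor of early T cells, fell in both subsets, by 4.23 on the log2 scale in virtual memory and by 1.36 in naive cells. Ccr9, a gut-homing chemokine receptor, and Igfbp4, an insulin-like growth factor binding protein, were lower in virtual memory cells throughout, with gaps of −6.84 and −5.34 in IL-15C and −4.06 and −3.21 in control mice. Id3, an inhibitor of E proteins, had responses of −0.54 in virtual memory and 0.65 in naive cells, with a difference of −1.19 that was not counted under 3 alternatives (−1.11 to −1.12). The factors most used to define the naive state were not counted: Tcf7 had a difference of −0.09, Foxo1 of −0.09 and Lef1 of −0.56.

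Of 17 cell-cycle brakes and quiescence genes 2 were counted, both lower (11.8%, against 3.76% of all members). Btg1, an antiproliferative gene of resting lymphocytes, was at 292 CPM in IL-15C and 678 CPM in control virtual memory cells, and at 879.8 CPM in IL-15C and 847 CPM in control naive cells, and Tsc22d3, the glucocorticoid-induced leucine zipper GILZ, at 68.8 and 259 CPM in IL-15C and control virtual memory cells, and at 293 and 394 CPM in IL-15C and control naive cells. In both the IL-15C virtual memory library was the low one. Cdkn1a, the p21 inhibitor of cyclin-dependent kinases, had a difference of 1.17 (−0.90 to 3.17) that was not counted. Ccnd2, cyclin D2, was at 239 CPM in IL-15C and 707 CPM in control virtual memory cells, and at 517 CPM in IL-15C and 698 CPM in control naive cells, a difference of −1.13 that was −0.98 and not counted from the deposited TPM values. Among the most read counted genes, Ddx5, an RNA helicase, was at 964 and 2178 CPM in IL-15C and control virtual memory cells, and at 2066 and 2211 CPM in IL-15C and control naive cells, Pdcd4, an inhibitor of translation initiation, had responses of −0.83 and 0.26, and Gpr174, a lysophosphatidylserine receptor, of −1.59 and −0.35. The difference of Ddx5 was −1.08 here, and between −0.84 and −1.01 in 4 alternatives under which it was not counted. With the length and GC trend removed Il7r, Gpr174 and Pdcd4 were not counted either, at −1.03, −0.76 and −0.84. Clec2d, a lectin-like ligand of NK receptors, and Gvin1, a very large interferon-inducible GTPase, were counted at −1.10 and −1.42.

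Integrin and adhesion genes had 2 lower (11.1%) and 1 higher (5.56%) of 18, against 3.76% and 0.856% of all members. Itgae, which encodes CD103, was at 2.50 CPM in IL-15C and 33.0 CPM in control virtual memory cells, and at 115 CPM in IL-15C and 274 CPM in control naive cells, and Itga4, which encodes the gating marker CD49d, at 50.9 and 351 CPM in IL-15C and control virtual memory cells, and at 289.6 and 614 CPM in IL-15C and control naive cells, with starting gaps of −3.05 and −0.81 and differences of −2.45 and −1.70. Itgam, which encodes CD11b and is also on the list of macrophage and granulocyte markers, was the higher one at 1.86 (1.33 to 2.45), reaching 5.55 CPM in IL-15C and 1.897 CPM in control virtual memory cells. Without members of the lists of other cell types 2 were lower and 0 higher, and the median difference was −0.08, against 0.03 with them. The gene of the other gating marker, Cd44, had responses of 0.06 in virtual memory and 0.98 in naive cells and was not counted.

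Immediate early genes, which are induced within minutes by T cell receptor and stress signals, had the larger decrease in virtual memory cells. Of 27 measured members 6 had the lower response there and 0 the higher one, and 24 of the 27 differences were below 0. The median response was −1.30 in virtual memory cells and −0.37 in naive cells, with a median starting gap of 0.26. Within virtual memory cells 18 of 27 fell past the 2-fold limit and within naive cells 1. Jun, a subunit of the transcription factor AP-1, was at 22.96 CPM in IL-15C and 163 CPM in control virtual memory cells, and at 79.9 CPM in IL-15C and 125 CPM in control naive cells, a difference of −2.18 (−2.29 to −2.07). Junb was at 62.0 and 274 CPM in IL-15C and control virtual memory cells, and at 152 and 286 CPM in IL-15C and control naive cells, and Ppp1r15a, which restores translation after stress, had responses of −2.27 and −0.73. The control libraries lay within 2-fold of each other in each of these. Nfkbia, the inhibitor of NF-kB, and Zfp36, which destabilises cytokine messages, moved in virtual memory cells by −1.30 and −1.36 and in naive cells by 0.06 and −0.16. The sixth, Cd69, which keeps lymphocytes in tissue, had a difference of −1.12, and of −0.64 to −1.07 in 4 alternatives under which it was not counted. Fos alone fell in naive cells, and Nr4a2, Dusp5 and Klf6 were the members with a difference above 0. Exons of Jun overlap Junos and those of Junb overlap Prdx2 on the opposite strand.

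**Figure D4:**
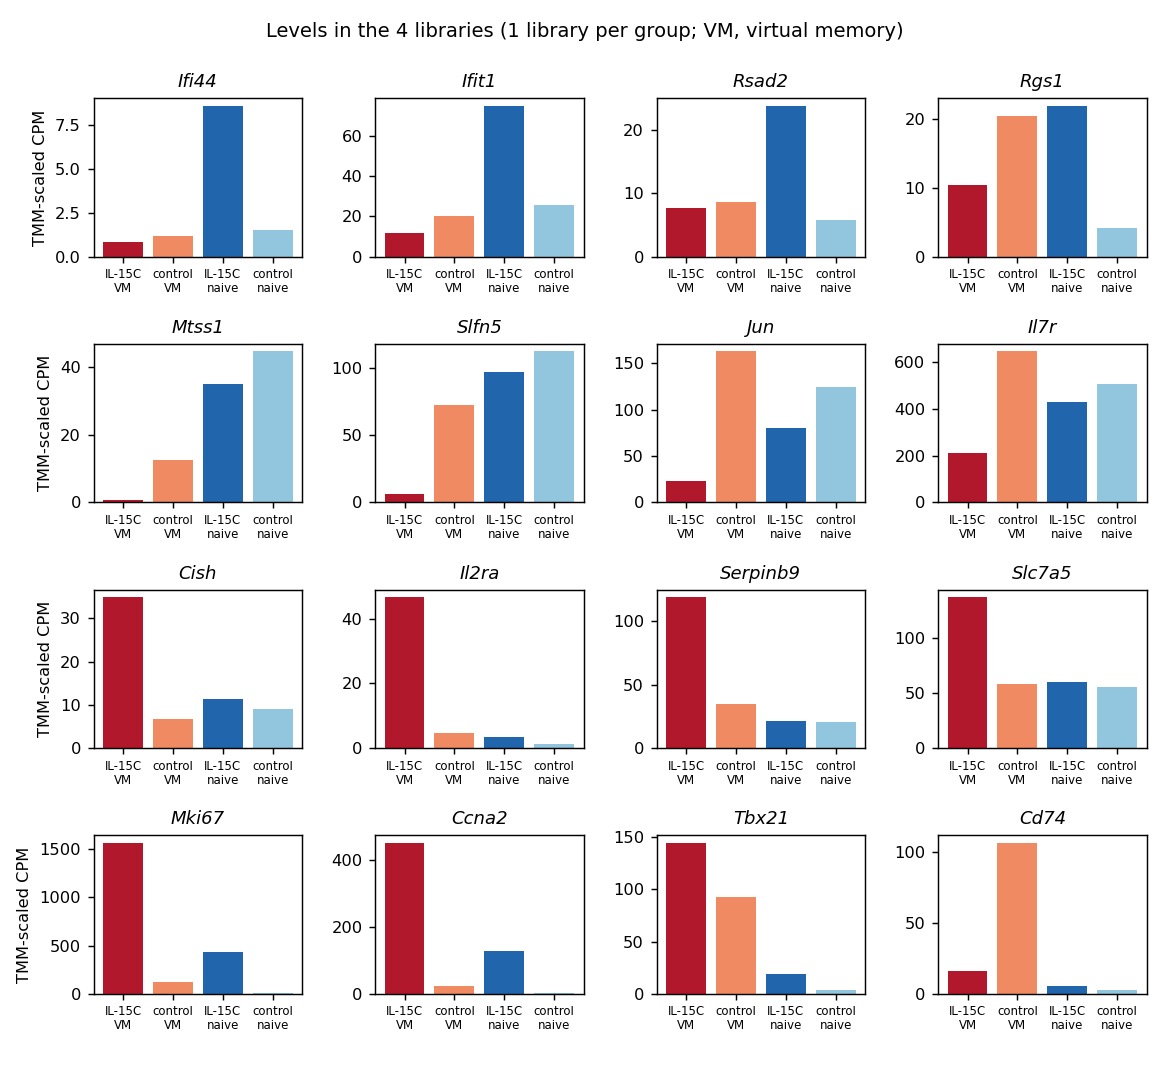
TMM-scaled CPM of 16 genes in the 4 libraries (IL-15C virtual memory, control virtual memory, IL-15C naive, control naive), 1 bar per library, each panel on its own scale from 0. Ifi44, Ifit1 and Rsad2 stand high in IL-15C naive cells alone, Slfn5, Jun and Il7r stand low in IL-15C virtual memory cells, and Cish, Il2ra, Serpinb9 and Slc7a5 stand high in IL-15C virtual memory cells.

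Genes of IL-2 and IL-15 signalling and of STAT5 feedback were divided between the directions. Of 24 members 2 (8.33%) had the higher response in virtual memory cells and 2 (8.33%) the lower one, against 0.856% and 3.76% of all members. Median responses were 0.03 in virtual memory and 0.18 in naive cells. Cish, whose protein blocks STAT5 docking on the receptor (Entrez 12700, chromosome 9, 107296659 to 107302784), was at 34.9 CPM in IL-15C and 6.74 CPM in control virtual memory cells, and at 11.3 CPM in IL-15C and 9.06 CPM in control naive cells. It started at a similar level (−0.42) and its difference of 2.05 (1.80 to 2.31) was made of 2.37 in virtual memory and 0.32 in naive cells. Its exons overlap the predicted genes Gm17040 and Gm17041 on the opposite strand, and strand-specific counting is not stated. Il2ra, the alpha chain that makes the IL-2 receptor high-affinity (Entrez 16184, chromosome 2, 11642792 to 11693194), was at 46.7 and 4.55 CPM in IL-15C and control virtual memory cells, and at 3.34 and 1.24 CPM in IL-15C and control naive cells. It rose in both subsets and was already higher in control virtual memory cells (1.84).

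Other inhibitors of the pathway did not show such a difference. Socs2 rose in both, by 2.46 in virtual memory and 2.93 in naive cells, with a difference of −0.47. Socs1 had a difference of 0.30, Socs3 of −1.06 and Pim1, a survival kinase, of −0.41, and none of the 3 was counted. Pim2, a kinase of the same family, was counted at −1.49, with responses of −0.997 in virtual memory and 0.49 in naive cells, neither counted alone. Of the receptor chains, Il2rb had a difference of 0.07 and a starting gap of 2.40, and Il2rg −0.23 and −0.15. Survival genes of the BCL-2 family had 1 of 16 counted (6.25%), near the 4.62% of all members. This was the death gene Bbc3 (PUMA), which was at 20.6 CPM in IL-15C and 48.8 CPM in control virtual memory cells, and at 17.8 CPM in IL-15C and 13.6 CPM in control naive cells. Mcl1 and Bcl2 had differences of −0.91 and −0.63.

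Serpinb9 and Serpinb6b, of the protease inhibitors that shield killer cells from their own granzymes, rose in virtual memory cells only. Serpinb9, the granzyme B inhibitor, was at 119 and 34.6 CPM in IL-15C and control virtual memory cells, and at 21.7 and 20.5 CPM in IL-15C and control naive cells, and Serpinb6b at 181 CPM in IL-15C and 49.1 CPM in control virtual memory cells, and at 21.7 CPM in IL-15C and 16.9 CPM in control naive cells, with differences of 1.70 (1.55 to 1.85) and 1.53 (1.38 to 1.68). Serpinb9 started less than 2-fold apart, Serpinb6b 1.53 apart. These were the 2 higher of 16 cytotoxic genes (12.5%, against 0.856% of all members), and 0 were lower. The list as a whole did not respond more in virtual memory cells: 7 differences lay above 0 and 9 below. Median responses were 0.24 in virtual memory and 0.36 in naive cells. The 3 measured granzymes rose in both subsets and their differences were not counted: Gzmb rose by 5.35 in virtual memory and 4.62 in naive cells, Gzma by 4.21 and 3.59, and Gzmm by 1.76 and 1.47. In CPM Gzmb gained 483 in virtual memory and 36.4 in naive cells. Fasl, the death ligand, had a difference of 1.88 (0.86 to 3.00), whose interval was too wide to be counted. Cd160, a receptor of cytotoxic lymphocytes, was at 93.5 and 51.1 CPM in IL-15C and control virtual memory cells, and at 17.6 and 24.4 CPM in IL-15C and control naive cells. It had the higher response among 9 NK receptor genes, of which Klrk1 had the lower one.

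Cytoskeletal and membrane-associated genes were divided between both directions, with 3 higher and 3 lower of 19. Vim, the intermediate filament vimentin, was at 1749 CPM in IL-15C and 438 CPM in control virtual memory cells, and at 518 CPM in IL-15C and 275 CPM in control naive cells, and Lgals1, the secreted lectin galectin-1, at 775 and 145 CPM in IL-15C and control virtual memory cells, and at 125 and 55.8 CPM in IL-15C and control naive cells. Both rose in virtual memory cells, and their differences were 1.08 and 1.26. Ahnak, a large scaffold protein, had responses of −0.84 in virtual memory and −1.89 in naive cells, where it fell. The most read counted genes of similar start included 3 of the cytoskeleton. Actg1, gamma actin, was at 3966 CPM in IL-15C and 1578 CPM in control virtual memory cells, and at 1569.6 CPM in IL-15C and 1275 CPM in control naive cells. Flna, the actin cross-linker filamin A, was at 2695 and 1719.7 CPM in IL-15C and control virtual memory cells, and at 900.4 and 1572 CPM in IL-15C and control naive cells. Tuba1b, an alpha tubulin, was at 2238 CPM in IL-15C and 370.4 CPM in control virtual memory cells, and at 891 CPM in IL-15C and 341 CPM in control naive cells. Flna had responses of 0.65 in virtual memory and −0.80 in naive cells, and Actg1 rose in virtual memory cells. Trrap, a scaffold of histone acetyltransferases, and Nup210, a nuclear pore protein, were counted at 1.10 and 1.13. With total reads in place of TMM, Actg1, Ahnak, Vim and Trrap were not counted, at 0.98 to 1.05.

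Genes of growth metabolism had small, mostly positive differences. Of 22 oxidative phosphorylation genes, which make up the respiratory chain and ATP synthase, all 22 differed above 0 and 0 were counted, with medians of 0.89 in virtual memory and 0.62 in naive cells. Of 18 glycolysis genes 14 were above 0 and 0 counted, with medians of 0.79 and 0.49, and 8 rose in virtual memory cells and 2 in naive cells. Pkm, pyruvate kinase, was at 1059.5 and 486 CPM in IL-15C and control virtual memory cells, and at 574 and 414 CPM in IL-15C and control naive cells. Eno1, enolase, had a difference of 0.52, Atp5a1 and Atp5b of the ATP synthase 0.52 and 0.63. Among 24 sterol and fatty acid synthesis genes 21 were above 0, with medians of 0.39 in virtual memory and −0.08 in naive cells and a median starting gap of −0.45. The counted one was Fasn, fatty acid synthase, at 392 CPM in IL-15C and 261 CPM in control virtual memory cells, and at 148 CPM in IL-15C and 265 CPM in control naive cells, a difference of 1.43 (1.37 to 1.48). Acly, which makes its substrate acetyl-CoA, had a difference of 0.74. Slc7a5, the large neutral amino acid transporter, was at 137 and 57.6 CPM in IL-15C and control virtual memory cells, and at 59.7 and 55.3 CPM in IL-15C and control naive cells. It had the higher response among 9 uptake genes, and Slc43a1, another amino acid transporter, had the lower one at −2.23. With total reads the difference of Slc7a5 was 1.08 and not counted. Differences of the proteasome (20 genes, median 0.13), the secretory pathway (17 genes, 0.30), fatty acid oxidation (16 genes, 0.08), class I antigen loading (18 genes, −0.13), nucleolar ribosome biogenesis (20 genes, −0.11) and T cell receptor signalling (16 genes, 0.05) included 0 counted genes. The 2 most read genes of these lists had differences of −0.09 (Psmb1) and 0.54 (Psmd2), −0.16 (Pdia3) and 0.42 (Calr), 0.38 (Hadha) and −0.06 (Hadhb), −0.21 (B2m) and −0.18 (H2-K1), −0.85 (Npm1) and −0.66 (Ncl), and −0.35 (Cd8a) and −0.19 (Cd8b1). The median of the T cell receptor list turned to −0.00213 with total reads.

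The 15 largest positive differences by the naming rule lay between 1.71 and 5.61, and several share exons with other genes. Rsc1a1, which regulates glucose transporter traffic, had the largest difference at 5.61 (4.57 to 7.04) and was at 15.3 CPM in IL-15C and 0.335 CPM in control virtual memory cells, and at 0.418 CPM in IL-15C and 0.511 CPM in control naive cells. Its exon lies within the exons of Ddi2 on the same strand, to which reads could also be assigned, and Ddi2 had a difference of 0.38. Dpm1, a subunit of dolichol phosphate mannose synthase, was at 27.9 and 4.13 CPM in IL-15C and control virtual memory cells, and at 20.9 and 16.8 CPM in IL-15C and control naive cells, but shares exons on the same strand with Gm20716, which had a difference of −3.31, so the division of their reads is uncertain. L1cam shares exons with Arhgap4 in the same way. Neb, the muscle protein nebulin, was at 15.8 CPM in IL-15C and 1.87 CPM in control virtual memory cells, and at 5.76 CPM in IL-15C and 7.18 CPM in control naive cells, a difference of 3.36 (2.99 to 3.79). Cenpa, the centromeric histone variant, was at 208 and 15.4 CPM in IL-15C and control virtual memory cells, and at 42.2 and 11.5 CPM in IL-15C and control naive cells. It rose in both subsets, by 3.75 in virtual memory and 1.87 in naive cells. The others were Tspoap1 (2.51), L1cam (2.50), Cd68 (2.42), Syne3 (2.08), Zbed3 (1.87), Cep89 (1.81), Gpc1 (1.76), Ggt1 (1.72) and Ccdc85c, with Cish and Il2ra.

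Cell-division genes rose in both subsets and stood higher in virtual memory cells, and 15 of 24 mitosis genes had the lower log2 response there. All 24 mitosis genes rose in both, as did all 26 DNA replication genes except Cdt1, which passed the limit in virtual memory cells alone. All 24 mitosis genes and all 26 DNA replication genes stood higher in virtual memory than in naive cells, in IL-15C and in control mice alike. None of the 24 mitosis genes was counted with the higher response (0 of 24), though 5 differences lay above 0 and 19 below, with a median response of 4.03 in virtual memory and 5.73 in naive cells and a median starting gap of 3.27. Of the 26 replication genes 6 were lower and 0 higher, and 12 differences lay above 0 and 14 below, with medians of 2.62 and 2.78 and a starting gap of 0.87. The 21 counted genes of both lists started apart, rose in both subsets and stood closer with IL-15C. Standing closer is not a separate result: for a gene higher in virtual memory cells throughout, it restates the lower response there.

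In CPM the gains were larger in virtual memory cells. The summed level of the mitosis genes was 7782 CPM in IL-15C and 507 CPM in control virtual memory cells, a gain of 7275, and 2511 CPM in IL-15C and 66.9 CPM in control naive cells, a gain of 2444. All 24 mitosis genes and 25 of 26 replication genes gained more CPM in virtual memory cells. Over the whole table, 53 genes counted with the lower log2 response in virtual memory cells were up past 2-fold in both subsets on the values alone. Of these, 50 gained more CPM in virtual memory cells. Mki67, the proliferation marker Ki-67 (Entrez 17345, chromosome 7, 135689784 to 135716450), was at 1566 CPM in IL-15C and 117 CPM in control virtual memory cells, and at 432 CPM in IL-15C and 8.22 CPM in control naive cells, a difference of −1.97 (−2.13 to −1.83) in log2 response beside gains of 1449 CPM in the virtual memory subset and 424 CPM in the naive one. Ccna2, cyclin A2, was at 452 and 23.8 CPM in IL-15C and control virtual memory cells, and at 128 and 1.12 CPM in IL-15C and control naive cells, and its exons overlap Exosc9 on the opposite strand. Top2a, the topoisomerase that untangles replicated DNA, had responses of 3.83 in virtual memory and 5.63 in naive cells, and Rrm2, a subunit of ribonucleotide reductase, of 3.82 and 5.98.

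Several of these genes were close to absent from control naive cells. Pbk, a mitotic kinase, was at 47.1 CPM in IL-15C and 2.90 CPM in control virtual memory cells, and at 25.5 CPM in IL-15C and 0.118 CPM in control naive cells, so that its difference of −3.31 had a wide interval of −5.21 to −2.57. Bub1, a spindle checkpoint kinase, had a difference of −3.15 and Ccne2, cyclin E2, of −3.10, with 0.472 and 0.315 CPM in control naive cells. Both IL-15C libraries held Ccne2 at nearly the same level, 27.2 CPM for the virtual memory subset and 25.9 CPM for the naive one. E2f1, the transcription factor of the G1 to S transition, had a difference of −1.34 and was not counted under 3 alternatives (−1.26 to −1.28). Kif11, Kif15, Nusap1 and Ska1 of the spindle had differences of −1.94, −2.84, −2.81 and −2.59, Cdc6, Mcm10 and Tk1 of replication −2.03, −1.80 and −1.93. Off the lists, Esco2, Shcbp1, Pclaf and Stmn1, all linked to division, had −3.13, −3.02, −2.46 and −1.75. Cenpa, also off the lists and named above, went the other way, with a response 3.68-fold higher in virtual memory cells. Exons of Ccne2, Nusap1 and Tk1 overlap other genes on the opposite strand.

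Genes that mark virtual memory cells started far apart, and several rose in naive cells from low levels. Of 15 markers 5 had the lower response in virtual memory cells and 0 the higher one. The median response was 0.38 in virtual memory and 1.44 in naive cells, and the median starting gap was 2.50. Tbx21, the transcription factor T-bet, was at 145 and 92.8 CPM in IL-15C and control virtual memory cells, and at 18.5 and 3.58 CPM in IL-15C and control naive cells, a difference of −1.71 (−1.96 to −1.49). Klrk1, the activating receptor NKG2D, was at 52.1 CPM in IL-15C and 41.1 CPM in control virtual memory cells, and at 1.10 CPM in IL-15C and 0.197 CPM in control naive cells, so that naive cells held 2.11% of the virtual memory level in IL-15C mice and 0.478% in control mice. Cxcr3, which guides cells to inflamed tissue, was at 13.3% in IL-15C and 5.29% in control mice by the same measure. Klrk1 was counted neither from the deposited TPM values (−1.41) nor with the length and GC trend removed (−1.48). In naive cells, more cells with the virtual memory programme and more RNA per cell cannot be told apart.

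Of 14 chemokines and chemokine receptors 8 had the lower response in virtual memory cells and 0 the higher one. Ccr2, a receptor for inflammatory chemokines, rose in both subsets, at 211 and 45.3 CPM in IL-15C and control virtual memory cells, and at 2.49 and 0.118 CPM in IL-15C and control naive cells, and the difference was −1.75 (−3.65 to −1.01), not counted under DESeq2 scaling (−1.67). Cxcr5, which draws cells to B cell follicles, rose in naive cells only, with responses of −0.37 in virtual memory and 1.39 in naive cells, and its exons overlap the far more read Bcl9l on the opposite strand. Cx3cr1, the fractalkine receptor, had responses of −0.84 and 1.54. Ccl5, a chemokine of memory cells, was at 286 CPM in IL-15C and 502 CPM in control virtual memory cells, and at 6.64 CPM in IL-15C and 4.21 CPM in control naive cells, and Xcl1, which attracts dendritic cells, fell in virtual memory cells to 14.1 CPM with IL-15C, against 31.4 CPM in control. Cxcl10, an interferon-induced chemokine, was the 1 counted member with a similar start, at 0.864 and 0.625 CPM in IL-15C and control virtual memory cells, and at 2.18 and 0.354 CPM in IL-15C and control naive cells, and lost its count with DESeq2 size factors (−1.97).

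Plek, a substrate of protein kinase C, was at 416 CPM in IL-15C and 179.6 CPM in control virtual memory cells, and at 13.8 CPM in IL-15C and 0.491 CPM in control naive cells, a difference of −3.48 (−4.24 to −3.02) although it rose in both subsets. Il18rap, a chain of the IL-18 receptor, was counted at −1.24. Of 18 effector and memory transcription factors 3 were lower (Tbx21, Rora and Ikzf2) and 0 higher. The 3 were 16.7% of the list, against 3.76% of all members. Median responses were 0.15 in virtual memory and 0.25 in naive cells. Rora, a nuclear receptor, had a starting gap of −0.17 and fell in both subsets, by 2.71 on the log2 scale in virtual memory and by 1.30 in naive cells. With DESeq2 size factors Rora and Ikzf2 were not counted, at −1.33 and −1.16. Among 10 inhibitory receptor genes Lag3 and Ctla4 were lower. Lag3 was at 1.73 and 7.77 CPM in IL-15C and control virtual memory cells, and at 1.52 and 0.452 CPM in IL-15C and control naive cells, and Ctla4 at 1.56 CPM in IL-15C and 7.63 CPM in control virtual memory cells, and at 3.17 CPM in IL-15C and 1.36 CPM in control naive cells, so that each stood highest in control virtual memory cells. Cd160 had the higher response in that list too. Other much-read genes that started apart were Sytl2, Lpin1, Arsb, Prag1 and Trib2, further apart with IL-15C, with differences of 1.68, 1.45, 1.46, 1.24 and −1.62, and Ms4a4c, Afdn, Cntln and Phf11c, in the other order with IL-15C, with −1.73, −1.35, −2.65 and −2.34.

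**Figure D5:**
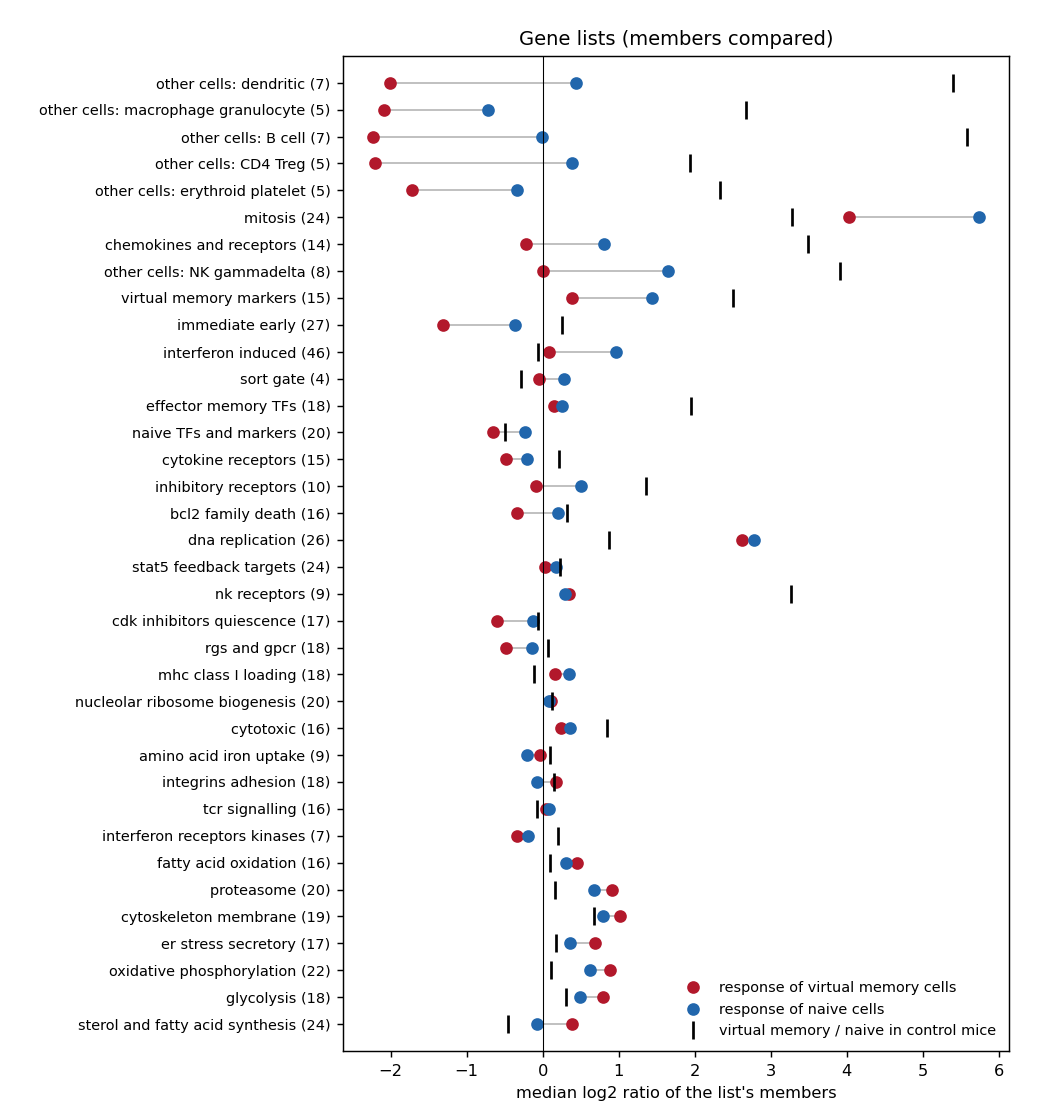
Median log2 response of virtual memory cells and of naive cells for the members of 36 gene lists, ordered by the median difference with the lowest at the top, and a tick for the median log2 ratio of virtual memory to naive cells in control mice. Number of members compared in brackets. Interferon-induced and immediate early genes have a tick near 0 and separate responses, mitosis genes and virtual memory markers a tick far to the right, and metabolic lists at the bottom the higher response in virtual memory cells.

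Transcripts that mark other cell types also moved with the comparison, and for the class II genes, Cd79a and Mpeg1 the control virtual memory library was the high one. The 7 dendritic cell and class II genes summed to 94.4 CPM in IL-15C and 234 CPM in control virtual memory cells, and to 9.68 and 6.09 CPM in IL-15C and control naive cells. Of these 5 had the lower response in virtual memory cells and 0 the higher one. Cd74, the class II invariant chain, was at 16.4 and 106 CPM in IL-15C and control virtual memory cells, and at 5.48 and 2.97 CPM in IL-15C and control naive cells, a difference of −3.57 (−3.90 to −3.27), and Cd79a, a B cell receptor subunit, at 1.12 CPM in IL-15C and 15.8 CPM in control virtual memory cells, and at 0.176 CPM in IL-15C and 0.177 CPM in control naive cells. H2-Aa, H2-Ab1, H2-Eb1 and Zbtb46 were the other lower ones, at −2.48, −2.13, −2.48 and −2.36. Of 7 B cell genes 3 were lower, Cd79a, Cd79b and Cd22, and the list summed to 697 and 706 CPM in IL-15C and control virtual memory cells and to 563 and 488 CPM in IL-15C and control naive cells, most of it Ighm in every library. Cd22, unlike Cd79a, rose in both subsets, at 85.0 and 34.9 CPM in IL-15C and control virtual memory cells, and at 1.01 and 0.059 CPM in IL-15C and control naive cells, a difference of −2.08 (−5.15 to −1.18). CD4 and regulatory T cell genes had 3 lower and 1 higher of 5, the lower ones being Ctla4, Ikzf2 and Foxp3 and the higher one Il2ra, which other lists hold as well. NK and gamma-delta T cell genes had 3 of 8 lower, Tcrg-C2, Tcrg-C4 and Cd163l1. Macrophage and granulocyte genes had 2 higher, Cd68 and Itgam, and 1 lower, Mpeg1, of 5, and the 5 erythroid and platelet genes had 0 counted, Hbb-bs and Itga2b differing by −2.16 and −0.55. Xcr1, Siglech, Clec9a, Ms4a1, Pax5, Cd4, S100a8 and Pf4 were not analysed here. The part of RNA from other cells in the remaining differences, Lag3, Ctla4 and Ikzf2 among them, was not tested. Without the genes of these lists 539 genes had the lower response in virtual memory cells and 123 the higher one.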

How the data were processed

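Poly-A RNA from 4 sorted spleen CD8 T cell populations was sequenced with a stranded kit, per the labels, 1 library per group. The authors deposited 1 table with raw read counts and TPM values per gene, per the file headers; 18 further per-sample columns were not used. Per the submitters' processing notes, the tools included StringTie 2.1.3b, HISAT2 2.1.0 and SAMtools 1.9 on the mm10 build, Trimmomatic 0.38 and FastQC 0.11.7 for read quality, and edgeR in R 4.2.2. Neither the annotation version nor strand-specific counting is stated. The table columns call the control groups ctrl, which were taken as the PBS groups of the labels.

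From the counts, TMM factors were computed in edgeR 4.0.16 (R 4.3.3). Log2 ratios carry a prior count of 2, and intervals are exact where the smallest count was under 50 and log-normal otherwise. No test was possible with 1 library per group, so intervals and limits cover counting error only. The calculation was tested on simulated data. Promoter letters and gene positions came from RefSeq, where 15428 of 15466 gene IDs matched.

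The members, the 36 gene lists and the limits were chosen with earlier results of these data known. The text names the 15 highest and 15 lowest counted differences among genes reaching 10 CPM (clone-named, receptor-segment, ribosomal, histone and pseudogenes left out), Rgs1, Mtss1, Ifi44 and Cish, up to 6 counted members per list or the 2 most read where fewer than 2 were counted, and the most read counted genes by starting gap. Beyond that rule, Cd44, Cdkn1a, Ddi2, Fasl, Foxo1, Gm20716, the granzymes, Il2rb, Il2rg, Lef1, Pim1, Samd9l, the SOCS genes, Stat2, Irf7, Ifih1, Oasl2, Tcf7 and members named with a count alone were chosen after their values were seen. Some items are not reported here. Alternatives were other scalings (DESeq2 1.42.0 size factors, total reads, median centring), other filters, a 4-fold limit, a prior count of 0.5, the deposited TPM values and, chosen after seeing the data, removal of a trend with transcript length and GC content and counts without markers of other cells.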

Additional observations from a re-analysis of the deposited data

Results flagged for a closer look

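The responses of 3 genes named above went opposite ways in the subsets, each by at least 2-fold on the values alone. The intervals of the single responses were not part of this limit, and with 1 library per group the difference was not tested. Lag3, an inhibitory receptor, had a log2 difference of −3.80, made of −2.14 in virtual memory and 1.66 in naive cells. Ctla4, another inhibitory receptor that regulatory T cells also express, had a difference of −3.45, made of −2.26 and 1.20. Mx2 had a difference of −2.28, made of −1.01 and 1.27. Its decrease in virtual memory cells did not pass the limit that takes in the interval.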

How the results depend on the processing

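No paired analysis was possible because each group had 1 library, and for the same reason no replicate could be left out. Counts of genes stayed within 1.5 times their main value in 49 of 55 recalculations. Dropping the read filter or taking a prior count of 0.5 left 680 genes counted. Neither setting could move this number much, as the intervals carry no prior count and are wide at few reads. With a 4-fold limit on the difference 83 genes were counted, 9 with the higher and 74 with the lower response in virtual memory cells. Of the 83 genes, 39 were down past 2-fold in virtual memory cells only and 29 were less than 2-fold apart in control mice. From the deposited TPM values 196 genes had the higher response. Genes with the higher response made up 18.5% of those counted, and 14.6% with total reads, 25.8% after centring on the median, 26.8% with DESeq2 size factors and 27.2% from TPM. DESeq2 size factors, total reads and median centring each shifted all genes by nearly the same amount (0.0784, −0.0481 and 0.0694). Such shifts are too small to turn the sign of a counted gene. Named genes kept their sign in 895 of 900 recalculations, the others being Hadhb (0.0106 to 0.369) and B2m (0.064), neither counted, and in 58 the count was lost. With DESeq2 size factors these included Afdn, Ccr2, Cd69, Cd79b, Clec2d, Cxcl10, Ddx5, E2f1, Id3, Ikzf2, Pdcd4 and Rora, and with length and GC removed also Btg1, Il7r, Gpr174, Il18rap, Rgs2 and Nup210. List medians kept their sign in 239 of 245, the exceptions being T cell receptor signalling (−0.00213), amino acid and iron uptake (−0.0213) and adhesion (−0.0189) with total reads, adhesion without markers of other cells (−0.084), cytotoxic genes with length and GC removed (0.0692), and macrophage and granulocyte genes at 5 CPM in the highest library (1.86). The length and GC alternative and the counts without markers of other cells were chosen after seeing the data. Depth limits genes with few reads in control naive cells, whose intervals are wide, and spread between animals is unknown.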
